A study of Mus musculus with 7 samples.

Results

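The genes for the hepatocyte growth factor (HGF) receptor and its ligand, the fibroblast growth factor (FGF) receptors, the epidermal growth factor (EGF) receptor and the Sprouty inhibitors were followed from growing mouse myoblasts to 2-day myotubes. The 10 genes were taken by symbol, Met, Hgf, Fgfr1, Fgfr2, Fgfr3, Fgfr4, Spry1, Spry2, Spry4 and Egfr, out of 37975 genes in the expression table, and all 10 were among the 15966 that the authors tested. Satellite cells, the stem cells of muscle, had been sorted by fluorescence from mice of 4 to 6 weeks, and the primary myoblasts cultured from them were grown in growth medium or taken at confluence into medium with 5% horse serum for 48 hours, in which they fuse into myotubes. Both RNA samples came from cells carrying an empty retroviral vector, so the controls and the differentiated cells share the infection, and no genotype or strain of the mice is given in the labels. Chromatin immunoprecipitation (ChIP) had located the binding of MyoD, a helix-loop-helix regulator of the muscle programme, in 2-day myotubes, and that sample is described as taken from an earlier one. Each condition had 1 value per gene, in FPKM, fragments counted per transcript length and library size.

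HGF and FGFs are the classic mitogens of muscle satellite cells. HGF binds Met and FGFs bind the FGF receptors, tyrosine kinases that recruit adaptors, load Ras with GTP and drive the RAF, MEK and ERK kinases, a route that in myoblasts sustains division and holds back differentiation. Sprouty proteins are induced by this route and act back on it by blocking the passage from receptor to Ras, and Spry1 is known for its role in the return of satellite cells to quiescence.

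Promoters are shown first for 4 genes with different behaviour below. Spry1 rose and had a MyoD peak beside its start, and Spry2 fell and had none. Met fell most among the called genes, and Fgfr3 was the receptor among the 10 genes that rose. The promoters run 5′ to 3′ from 250 bases before to 50 bases after the annotated start. That start is from RefSeq, build GRCm38.p6, a build other than that of the peaks. Capitals mark E-boxes, the sequence CANNTG that factors such as MyoD bind. The search took both strands, on which CANNTG reads alike, and allowed matches to overlap, so that each more specific motif named below is counted as an E-box too. Spry1 is on the plus strand at chr3:37639697-37639996, Spry2 on the minus strand at chr14:105896770-105897069, Met on the plus strand at chr6:17463707-17464006 and Fgfr3, for the first of its promoters, on the plus strand at chr5:33721474-33721773.
Spry1: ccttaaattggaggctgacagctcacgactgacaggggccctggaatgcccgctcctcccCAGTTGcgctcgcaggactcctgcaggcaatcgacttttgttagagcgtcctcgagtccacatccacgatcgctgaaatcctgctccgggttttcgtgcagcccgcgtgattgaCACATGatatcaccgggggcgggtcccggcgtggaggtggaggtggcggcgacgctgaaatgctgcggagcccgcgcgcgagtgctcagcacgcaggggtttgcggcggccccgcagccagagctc
Spry2: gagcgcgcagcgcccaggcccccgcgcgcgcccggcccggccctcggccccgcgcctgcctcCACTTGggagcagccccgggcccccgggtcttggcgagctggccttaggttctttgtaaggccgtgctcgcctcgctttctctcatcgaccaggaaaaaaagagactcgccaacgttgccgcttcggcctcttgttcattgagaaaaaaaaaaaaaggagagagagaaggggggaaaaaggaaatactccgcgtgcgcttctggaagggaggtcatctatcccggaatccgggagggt
Met: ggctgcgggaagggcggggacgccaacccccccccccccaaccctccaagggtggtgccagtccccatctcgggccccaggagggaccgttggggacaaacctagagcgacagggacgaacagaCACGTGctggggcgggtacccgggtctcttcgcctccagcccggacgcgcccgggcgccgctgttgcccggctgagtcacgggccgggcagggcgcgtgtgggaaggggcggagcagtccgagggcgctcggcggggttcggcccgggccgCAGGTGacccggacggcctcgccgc
Fgfr3: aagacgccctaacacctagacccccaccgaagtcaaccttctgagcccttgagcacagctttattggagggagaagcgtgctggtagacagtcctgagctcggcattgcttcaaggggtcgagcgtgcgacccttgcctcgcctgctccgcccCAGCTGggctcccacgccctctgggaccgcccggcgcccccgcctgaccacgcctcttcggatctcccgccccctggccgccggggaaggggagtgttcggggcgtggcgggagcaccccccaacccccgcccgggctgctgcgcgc

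The Spry1 promoter held CAGTTG 190 bases and CACATG 76 bases before the start, and that of Spry2 held CACTTG 188 bases before it. Met had CACGTG 126 bases before the start and CAGGTG 26 bases after it. In Fgfr3 the motif was CAGCTG, 97 bases before the start. An E-box of any kind was present in 72.3% of the 32851 promoters of that table, with a median of 1 per promoter, so its presence at these genes is what most promoters show. CAGCTG was in 16.3%, CAGGTG on either strand in 20.2% and CACGTG in 7.15%. Of the 10 genes, 8 were matched in the table with 10 promoters, and Fgfr1 and Spry4 were not among them. Promoters without a CANNTG were those of Egfr, the second of Hgf and the second of Fgfr3.

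The cell labels were checked on marker genes. All 6 tested myotube markers rose, among them Myog from 130 to 1207 FPKM and Ckm from 49.4 to 1453 FPKM, while of 6 myoblast markers 2 fell and 1 rose. The satellite cell gene Pax7 fell from 48.5 to 6.71 FPKM and Myf5 from 55.4 to 14.4 FPKM, though Myf5 did not pass with the median shift of all genes removed (q = 0.0883). Des, which muscle keeps on expressing, rose from 539 to 2785 FPKM, and not called were Myod1 at 895 and 293 FPKM, Itga7 at 120 and 185 FPKM and Cdh15 at 78.0 and 132 FPKM. Markers of fibroblasts and endothelial cells had low summed levels. These were 7.90 and 1.47 FPKM for 7 fibroblast genes in growing myoblasts and myotubes, and 5.45 and 2.90 FPKM for 6 endothelial genes. Of these lists Lum, Tcf21, Dpt and Emcn were at 0 in both, and the tested genes were Thy1, Col1a1, Pecam1 and Vwf. Schwann cell genes summed to 3.80 and 0.820 FPKM and adipocyte genes to 1.96 and 1.43 FPKM. Macrophage and leukocyte genes summed to 31.6 and 27.2 FPKM, most of it from Itgam, with Emr1 and Lyz2 at 0 in both. The 6 pericyte and smooth muscle genes summed to 303 and 2035 FPKM, most of it from Acta2 at 227 and 2025 FPKM. Acta2, which differentiating muscle also expresses, rose. Rgs5, a pericyte gene of the same list, fell from 73.1 to 7.72 FPKM. In the other lists Pecam1 fell from 4.62 to 0.213 FPKM, Thy1 from 3.70 to 0.516 FPKM, Mbp from 1.72 to 0.215 FPKM and Cd68 by a factor of 3.94 to 2.80 FPKM. Thus some markers of other cells fell alongside Met, Fgfr1, Hgf, Egfr and Spry2. Others had higher values in myotubes without a call, Vwf at 0.739 and 2.47 FPKM, Cspg4 at 0.303 and 1.07 FPKM and Itgam at 20.6 and 24.3 FPKM. Cspg4 passed as higher with the median shift removed (q = 0.0234). The part of other cells in the results was not tested. In such bulk samples a smaller share of cells of a type and less RNA per cell cannot be told apart.

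Of the 10 genes, 2 rose, Spry1 and Fgfr3, and 5 fell, Met, Fgfr1, Hgf, Egfr and Spry2, by the authors' deposited table, in which a gene counts as called at a false discovery rate q of at most 0.05. Fgfr2, Fgfr4 and Spry4 were not called, although their values were lower in myotubes. Over all 15966 tested genes, 6.52% were called higher and 17.3% lower. The median log2((FPKM + 1) ratio) of the 10 genes was -1.27, against -0.38 for all tested genes. Myotube values were lower for 8 of the 10, and a negative log2 fold change was also the more common sign in the authors' deposited table, at 66.6% of 15416 tested genes with values above 0 in each condition. The median log2 fold change of those genes was -0.41, and with this shift removed Met and Fgfr1 remained lower and Spry1 and Fgfr3 higher, while Egfr, Hgf and Spry2 no longer passed.

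**Figure D1:**
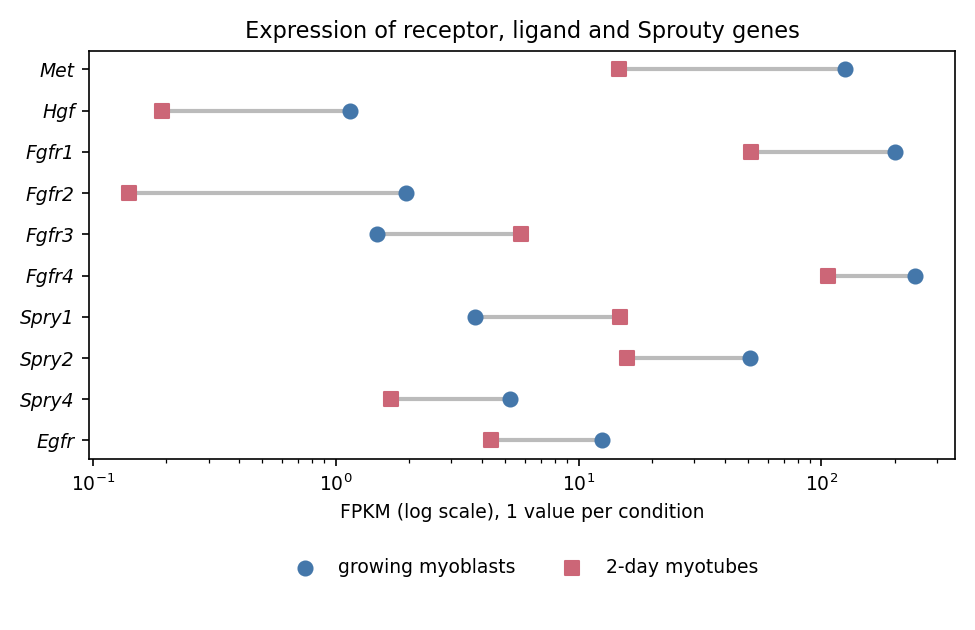
FPKM of the 10 genes on a log axis, with a circle for growing myoblasts and a square for 2-day myotubes, 1 value each. Spry1 and Fgfr3 lie higher in myotubes and the other 8 lower, and Fgfr4 and Fgfr1 are the highest in both conditions.

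In growing myoblasts the levels ran from Fgfr4 at 244 FPKM, Fgfr1 at 202 and Met at 125 through Spry2 at 50.7 and Egfr at 12.5 to Spry4 at 5.21, Spry1 at 3.75, Fgfr2 at 1.96, Fgfr3 at 1.48 and Hgf at 1.15 FPKM. In myotubes the order was Fgfr4 at 106 FPKM, Fgfr1 at 51.2, Spry2 at 15.9, Spry1 at 14.8, Met at 14.6, Fgfr3 at 5.78, Egfr at 4.35, Spry4 at 1.69, Hgf at 0.194 and Fgfr2 at 0.140 FPKM. Met went from the third to the fifth place and Spry1 from the seventh to the fourth. With 1 value per condition there is no spread over samples, so neighbours in these orders, such as Spry2, Spry1 and Met in myotubes, cannot be said to differ.

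**Figure D2:**
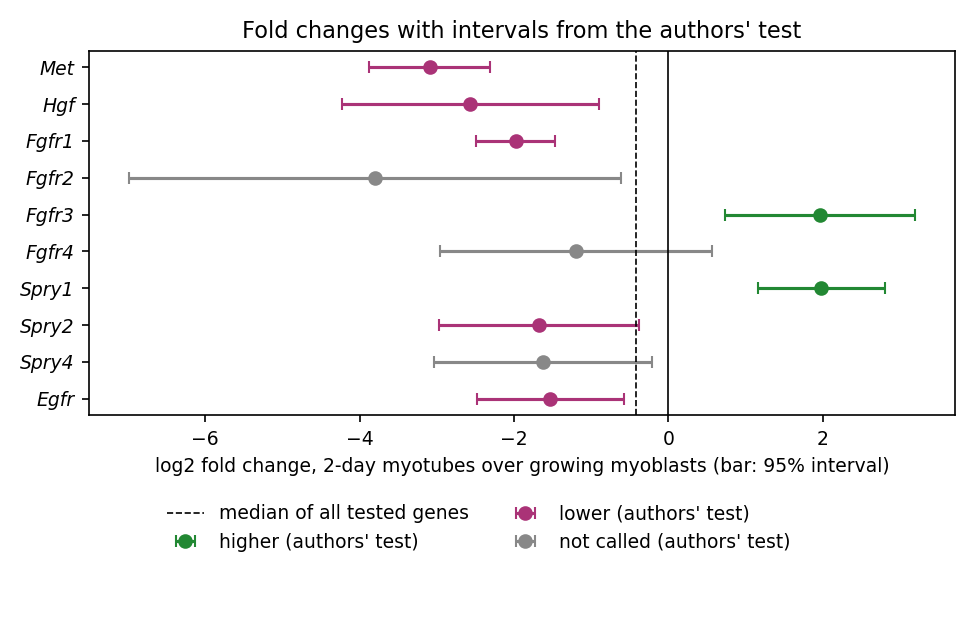
Log2 fold change of each gene in the authors' deposited table, myotubes over growing myoblasts, with bars for the 95% interval that the authors' test statistic implies. The dashed line is the median of all tested genes, at -0.41, and the bars of Fgfr4, Spry2 and Spry4 reach it.

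Met, the HGF receptor (ENSMUSG00000009376, chromosome 6, 17413799 to 17523980 in mm9), fell 8.54-fold, from 125 FPKM in growing myoblasts to 14.6 FPKM in myotubes. Its log2 fold change in the authors' deposited table was -3.09, with a standard error of 0.40, a 95% interval from -3.88 to -2.31 and q = 1.94e-12. Of the 15416 genes with a finite log2 fold change in that table, 2.30% had a lower one. Its level was above that of 89.3% of tested genes in growing myoblasts and of 53.0% in myotubes. In the same table the fall of Met was the larger of the falls of Met and Fgfr1, with a difference in log2 fold change of -1.12 (SE 0.48, 95% interval -2.06 to -0.18).

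Hgf, the ligand of Met (ENSMUSG00000028864, chromosome 5, 16059367 to 16125257), was scarce in both samples, at 1.15 FPKM in growing myoblasts and 0.194 FPKM in myotubes. The fall was 5.92-fold, with a log2 fold change of -2.56 in the authors' deposited table (SE 0.85, 95% interval -4.23 to -0.90, q = 0.0147). With the median shift of all tested genes removed its q was 0.0551. Hgf lay above 6.31% of tested genes in growing myoblasts and above 3.49% in myotubes, so its message was among the lowest that were tested. The difference between Met and Hgf in log2 fold change was -0.53, with a 95% interval from -2.37 to 1.31 that includes 0.

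HGF is secreted as an inactive precursor that serine proteases cut. Of 12 genes that govern this activation 7 were tested. Against 6.52% higher and 17.3% lower over all tested genes, none was called higher and 3 were lower. Among them were Plau, the urokinase protease that can cut the HGF precursor, from 21.6 to 3.51 FPKM, and Plaur, the urokinase receptor, from 40.1 to 8.87 FPKM, the latter with q = 0.0543 once the median shift was removed. Their log2 fold changes in the authors' deposited table were -2.62 (SE 0.71, q = 0.00189) and -2.18 (SE 0.70, q = 0.0108). Over the 6 with a mean of at least 1 FPKM the median log2 ratio was -1.63, and over all tested genes of that level it was -0.37.

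Of the summed message of Fgfr1, Fgfr2, Fgfr3 and Fgfr4, Fgfr1 and Fgfr4 made up nearly all in both conditions. Of these receptors only Fgfr3 rose. Fgfr1 (ENSMUSG00000031565, chromosome 8, 26624125 to 26686186), the main receptor of FGF2 in satellite cells, fell 3.94-fold from 202 to 51.2 FPKM. The authors' deposited table gave it a log2 fold change of -1.98 (SE 0.26, 95% interval -2.49 to -1.46, q = 6.31e-12). A second, untested entry named Fgfr1 at the same locus was listed at 26.1 FPKM in growing myoblasts and 3.94 FPKM in myotubes, and summing both moved the log2((FPKM + 1) ratio) from -1.96 to -2.03. The gene model Gm16159, given at the same locus, was at 0.840 and 1.22 FPKM and was not called.

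Fgfr4 (ENSMUSG00000005320, chromosome 13, 55254000 to 55270120), a receptor known for its expression in muscle precursors and regenerating muscle, was the most abundant gene of the 10 in both conditions. It stood at 244 FPKM in growing myoblasts and 106 FPKM in myotubes, above 94.6% and 88.3% of tested genes. The value in myotubes was 2.30-fold lower, but the authors' deposited table gave a log2 fold change of -1.20 with a standard error of 0.90, a 95% interval from -2.96 to 0.56 and q = 0.370. That interval holds both no change and a fall as large as that of Fgfr1.

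Fgfr3 (ENSMUSG00000054252, chromosome 5, 34064372 to 34079716), better known from cartilage, rose 3.90-fold from 1.48 to 5.78 FPKM. Its log2 fold change was 1.96 in the authors' deposited table (SE 0.63, 95% interval 0.73 to 3.20, q = 0.0114), and q = 0.00189 with the median shift removed. Even so, its myotube level was above 34.8% of tested genes only. Fgfr2 (ENSMUSG00000030849), a receptor best known from epithelia, was at 1.96 FPKM in growing myoblasts and 0.140 FPKM in myotubes, a 13.9-fold lower value. In the authors' deposited table its log2 fold change was -3.80 with a standard error of 1.63 (95% interval -6.99 to -0.61, q = 0.0731). The annotation placed Fgfr2 in a merged locus of 3010074 bp on chromosome 7, 137305964 to 140316037, shared with 21 other tested genes.

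**Figure D3:**
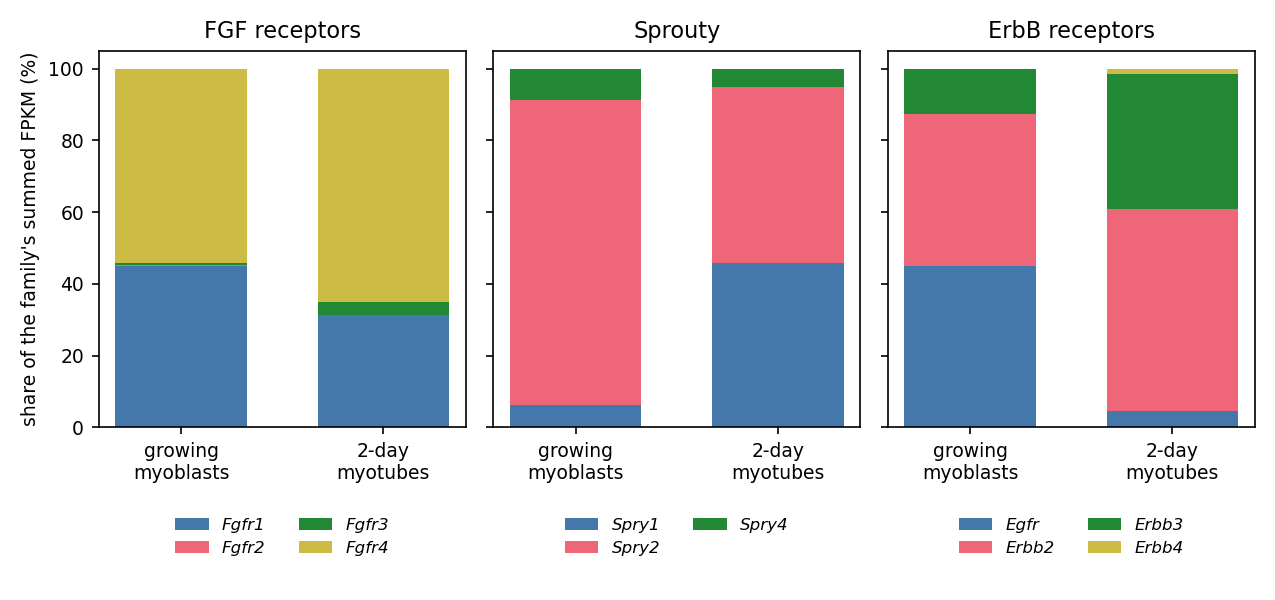
Share of each gene in the summed FPKM of its family, in percent, for growing myoblasts and 2-day myotubes, 1 value each. Fgfr4 and Fgfr1 hold most of the FGF receptor sum in both, Spry1 goes from 6.29% to 45.8% of the Sprouty sum and Egfr from 44.9% to 4.45% of the ErbB sum.

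Summed FPKM of Fgfr1, Fgfr2, Fgfr3 and Fgfr4 went from 449 in growing myoblasts to 163 in myotubes, 2.75-fold lower. The sum leaves out the second Fgfr1 entry and Fgfrl1, a receptor without the kinase that is described below. Fgfr4 held 54.3% of the sum before and 65.0% after differentiation, and Fgfr1 held 44.9% and 31.4%. Fgfr3 went from 0.331% to 3.54%, while Fgfr2 stayed under 1% at 0.436% and 0.0860%. In log2 fold change from the authors' deposited table, Fgfr3 differed from Fgfr1 by 3.94 (SE 0.68, 95% interval 2.60 to 5.28), from Fgfr4 by 3.16 (SE 1.10, 95% interval 1.01 to 5.31) and from Fgfr2 by 5.76 (SE 1.75, 95% interval 2.34 to 9.18). The other receptor pairs had intervals that include 0: Fgfr1 against Fgfr4 from -2.61 to 1.05, Fgfr1 against Fgfr2 from -1.41 to 5.05 and Fgfr4 against Fgfr2 from -1.04 to 6.24. All 15 such differences treat the errors of both genes as independent and are unadjusted for their number.

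Among FGF ligands, 7 of 22 were tested, 3 rose and none was called lower, against 6.52% higher and 17.3% lower over all tested genes. Fgf21, an endocrine FGF that stressed muscle releases, rose from 12.7 to 324 FPKM, and the authors' deposited table gave a log2 fold change of 4.67 (SE 0.71, q = 3.30e-09). Fgf13, an intracellular member that does not signal through the receptors, went from 20.0 to 177 FPKM (log2 fold change 3.14, SE 0.98, q = 0.00861 in the authors' deposited table). Fgf7, a ligand of the epithelial form of Fgfr2, went from 2.32 to 11.6 FPKM (log2 fold change 2.33, SE 0.50, q = 6.37e-05 in the authors' deposited table). Neither Fgf13 nor the endocrine Fgf21 is a classic paracrine ligand of FGF receptors. Of the ligands of that kind Fgf7 rose, as given, and the others tested were low and not called: Fgf2 at 2.08 and 0.566 FPKM, Fgf1 at 2.40 and 1.88 FPKM and Fgf9 at 4.80 and 6.31 FPKM. The intracellular Fgf11, at 8.76 and 12.9 FPKM, was not called either. A further 8 ligand genes were at 0 in both conditions. The list's median log2 ratio was 0.51.

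Of 20 partners of the FGF receptors, 13 were tested, 1 rose and 6 fell, against 6.52% and 17.3% of all tested genes. The 1 that rose was Fgfrl1, a receptor that binds FGFs and lacks the kinase, from 28.1 to 110 FPKM with a log2 fold change of 1.97 in the authors' deposited table (SE 0.42, q = 5.79e-05). Between Fgfrl1 and Fgfr1 the log2 fold changes in the authors' deposited table differed by 3.94 (SE 0.50, 95% interval 2.97 to 4.92). The 6 that fell were heparan sulphate carriers, which hold FGF and HGF at the cell surface and assist receptor binding. They included Gpc6 from 3.06 to 0.498 FPKM, Sdc3 from 163 to 27.2 FPKM, Sdc1 from 119 to 24.2 FPKM and Gpc2 from 13.0 to 2.68 FPKM, as well as Sdc2 and Sdc4, which marks satellite cells. Their log2 fold changes ran from -2.62 for Gpc6 to -1.58 for Sdc4 in the authors' deposited table, and Sdc4 did not pass with the median shift removed (q = 0.0564). Other carriers had higher values in myotubes without a call, Gpc1 at 125 and 353 FPKM and Gpc4 at 12.2 and 32.9 FPKM, and Gpc4 passed as higher with that shift removed (q = 0.0297). The Klotho genes, coreceptors of endocrine FGFs, were untested, Klb at 0.0280 and 0.0303 FPKM and Kl at 0 and 0.0605 FPKM.

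Egfr (ENSMUSG00000020122, chromosome 11, 16652205 to 16818161), the receptor of EGF and its relatives, fell 2.88-fold from 12.5 to 4.35 FPKM. In the authors' deposited table its log2 fold change was -1.53 (SE 0.49, 95% interval -2.48 to -0.57, q = 0.0108), and q was 0.0921 once the median shift was removed. Its 3 relatives went the other way. Erbb2, the coreceptor without a ligand of its own, rose from 11.8 to 55.3 FPKM, and Erbb3, a neuregulin receptor with little kinase activity, rose from 3.51 to 36.7 FPKM. Erbb4, another neuregulin receptor, rose from 0.0355 to 1.46 FPKM, so its fold change rests on a very low value in growing myoblasts. The log2 fold changes in the authors' deposited table were 2.23 for Erbb2 (SE 0.46, q = 2.54e-05), 3.39 for Erbb3 (SE 0.68, q = 1.39e-05) and 5.36 for Erbb4 (SE 0.98, q = 1.51e-06). Against Egfr in the same table they differed by 3.75 (95% interval 2.44 to 5.07), 4.91 (95% interval 3.27 to 6.55) and 6.89 (95% interval 4.74 to 9.05). The summed ErbB message went from 27.9 to 97.7 FPKM, 3.50-fold higher, and the share of Egfr in it went from 44.9% to 4.45%. Erbb2 held 42.4% and 56.5% of that sum and Erbb3 held 12.6% and 37.5%.

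The list of EGF family ligands and other ErbB receptors had 14 genes, of which 8 were tested. Of these 3 rose and 2 fell, against 6.52% and 17.3% of all tested genes. Among its ligands, amphiregulin (Areg), a ligand of Egfr, fell from 8.26 to 1.39 FPKM with a log2 fold change of -2.57 in the authors' deposited table (SE 0.78, q = 0.00696). Neuregulin 1 (Nrg1), a ligand of Erbb3 and Erbb4, fell from 2.33 to 0.228 FPKM with a log2 fold change of -3.35 in that same authors' deposited table (SE 1.07, q = 0.0105). Not called were Ereg at 2.11 and 0.603 FPKM, Tgfa at 4.83 and 2.14 FPKM and Hbegf at 14.3 and 10.6 FPKM, all ligands of Egfr.

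Within the Sprouty family Spry1 rose while Spry2 fell, and their values, far apart in growing myoblasts, were close in myotubes. Spry1 (ENSMUSG00000037211, chromosome 3, 37538868 to 37543520) rose 3.95-fold, from 3.75 to 14.8 FPKM. The authors' deposited table gave a log2 fold change of 1.98 (SE 0.42, 95% interval 1.16 to 2.81, q = 4.61e-05). Spry2 (ENSMUSG00000022114, chromosome 14, 106291165 to 106296036) fell 3.20-fold, from 50.7 to 15.9 FPKM. That call was close to the threshold, since the log2 fold change of -1.68 had a standard error of 0.66, a 95% interval from -2.97 to -0.38 and q = 0.0468 in the authors' deposited table, and q was 0.179 with the median shift removed. Spry4 (ENSMUSG00000024427, chromosome 18, 38745921 to 38760922) was at 5.21 FPKM in growing myoblasts and 1.69 FPKM in myotubes, 3.08-fold lower. It was not called, with a log2 fold change of -1.62, a standard error of 0.72, a 95% interval from -3.04 to -0.21 and q = 0.0872 in the authors' deposited table.

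The difference in log2 fold change, from the authors' deposited table, was 3.66 between Spry1 and Spry2 (SE 0.78, 95% interval 2.12 to 5.19) and 3.60 between Spry1 and Spry4 (SE 0.84, 95% interval 1.97 to 5.24). Between Spry2 and Spry4 it was -0.05 (SE 0.98), and its interval from -1.97 to 1.86 leaves room for a sizeable difference either way. Spry2 held 85.0% of the summed Sprouty FPKM in growing myoblasts and 49.0% in myotubes, and Spry4 held 8.73% and 5.23%. Spry1 went from 6.29% to 45.8%. The sum itself went from 59.7 to 32.4 FPKM, 1.84-fold lower. Spry3 was listed at 0 in both conditions.

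Other feedback inhibitors of the ERK route went the way of Spry2 where they were called. Of 16 such genes 14 were tested, 9 fell and none was called higher, against 17.3% and 6.52% of all tested genes. The median log2 ratio was -1.63, against -0.37 for all tested genes with a mean of at least 1 FPKM. Dusp4, a phosphatase that inactivates ERK in the nucleus, fell from 34.0 to 4.91 FPKM, and Errfi1, a direct inhibitor of ErbB kinases, fell from 143 to 21.5 FPKM. Dusp5, a nuclear ERK phosphatase, went from 19.8 to 3.27 FPKM and Dusp9, a phosphatase of ERK in the cytoplasm, from 6.89 to 1.26 FPKM. Their log2 fold changes in the authors' deposited table lay between -2.79 for Dusp4 (SE 0.69, q = 0.000590) and -2.46 for Dusp9 (SE 0.74, q = 0.00654). The others that fell were Dusp6, the Sprouty relatives Spred1, Spred2 and Spred3, and Lrig3. With the median shift removed 6 of the 9 were still lower, and Dusp6, Spred1 and Lrig3 did not pass. Of those not called, Dusp1 had a higher value in myotubes, at 11.6 and 21.9 FPKM, and Dusp7, Lrig1, Lrig2 and Rasal1 had lower ones.

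Genes that ERK signalling is known to induce included falls and uncalled higher values. Of 18 on the list 17 were tested, 7 fell and none was called higher, against 17.3% and 6.52% of all tested genes. The median log2 ratio was -0.92 over the 16 with a mean of at least 1 FPKM, against -0.37 for all tested genes of that level. Fosl1, an AP-1 subunit, fell from 120 to 10.9 FPKM, and Ccnd1, the D-type cyclin that carries mitogen signals to the cell cycle, fell from 882 to 102 FPKM. Emp1 went from 156 to 25.5 FPKM and Etv4, an ETS factor downstream of FGF signalling, from 58.1 to 10.4 FPKM. In the authors' deposited table the log2 fold changes were -3.47 for Fosl1 (SE 0.71, q = 1.93e-05), -3.11 for Ccnd1 (SE 0.51, q = 6.59e-08), -2.62 for Emp1 (SE 0.70, q = 0.00170) and -2.48 for Etv4 (SE 0.35, q = 1.46e-10). Etv1, Phlda1 and Myc fell as well, but Phlda1 and Myc did not pass with the median shift removed (q = 0.182 and 0.268). Some immediate-early genes of the list had higher values without a call, Fos at 2.86 and 7.59 FPKM, Egr1 at 12.9 and 29.0 FPKM and, by less, Egr2, Egr3, Ier2 and Fosl2. Others had lower values without a call, Junb at 50.4 and 24.8 FPKM, Fosb at 0.927 and 0.530 FPKM and Ier3 at 14.0 and 11.7 FPKM. With the shift removed Fos passed as higher (q = 0.0137). Such genes have other inducers, and ERK activity itself was not measured.

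Calls between receptor and ERK went both ways. Over all tested genes 6.52% were called higher and 17.3% lower. Among 15 tested receptor adaptors 1 rose and 1 fell. Pik3cb, a catalytic subunit of PI3 kinase, rose from 3.66 to 14.8 FPKM and Plcg1, a phospholipase that docks on activated receptors, fell from 94.3 to 42.5 FPKM. The authors' deposited table gave log2 fold changes of 2.01 (SE 0.53, q = 0.00128) and -1.15 (SE 0.27, q = 0.000307). Of 16 tested genes from Ras to ERK, 4 rose and 3 fell, with a median log2 ratio of -0.28 and a mean of opposite sign, 0.08. Hras1, a Ras gene, rose from 81.4 to 291 FPKM, and the kinase gene Braf rose from 6.25 to 104 FPKM, while its relative Araf went from 59.4 to 106 FPKM. Rasa1, which switches Ras off, fell from 281 to 51.7 FPKM and Nras from 70.7 to 41.5 FPKM, which did not pass with the median shift removed (q = 0.453). Among the log2 fold changes in the authors' deposited table were 4.06 for Braf (SE 1.20), 1.84 for Hras1 (SE 0.35) and -2.44 for Rasa1 (SE 0.28).

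**Figure D4:**
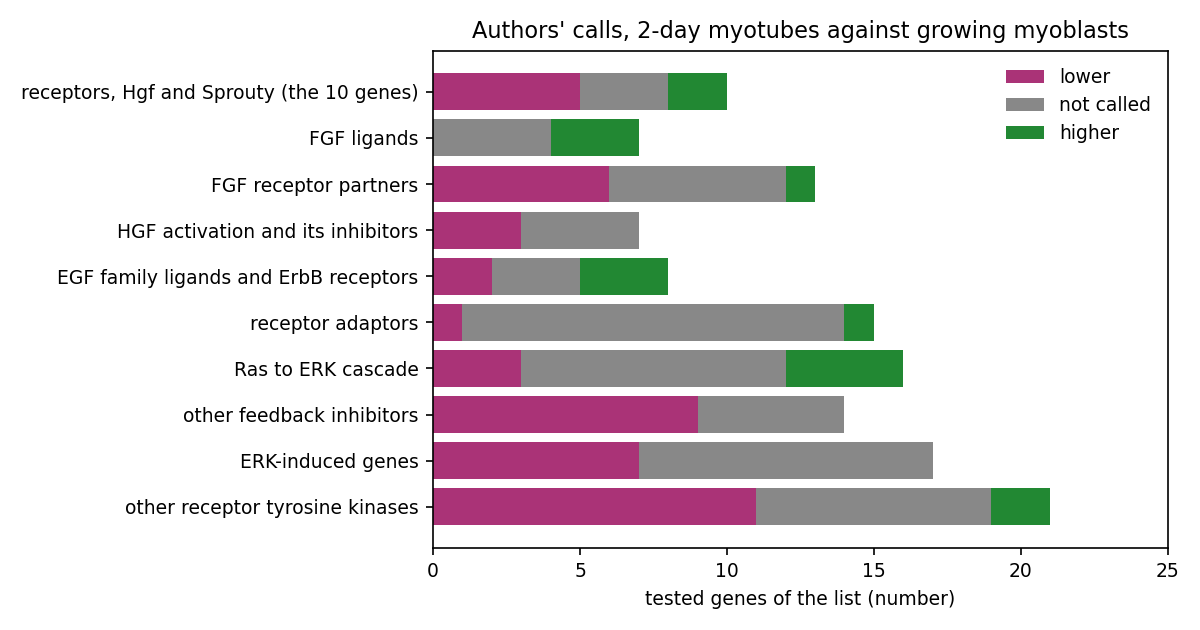
Number of tested genes of each list called lower, not called or called higher in 2-day myotubes by the authors' deposited table. The feedback inhibitors show 9 lower and 0 higher, the FGF ligands 0 lower and 3 higher, and the adaptors are mostly not called. Over all tested genes 17.3% were called lower and 6.52% higher.

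MyoD peaks lay in the locus or within 10 kb of 6 of the 10 genes, Met, Fgfr1, Fgfr2, Fgfr4, Spry1 and Spry4, against 38.9% of the 15930 tested genes on chromosomes with any peak. The 30 peaks counted for Fgfr2, of 7 to 44 tags each, lie in the merged locus that 21 other tested genes share and cannot be assigned to it. Without Fgfr2 it was 5 of 9 genes with 9 peaks. Peak scores, tags and enrichments are the authors', and the list gives binding in myotubes alone. Longer loci more often had a peak over all tested genes, from 19.7% under 10 kb (1 of 2 here, Spry1) and 36.0% from 10 to 50 kb (2 of 3, Fgfr4 and Spry4) to 54.4% from 50 to 200 kb (2 of 4, Met and Fgfr1). With 2 to 4 genes in each class, nothing about the 10 genes is read from these counts.

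**Figure D5:**
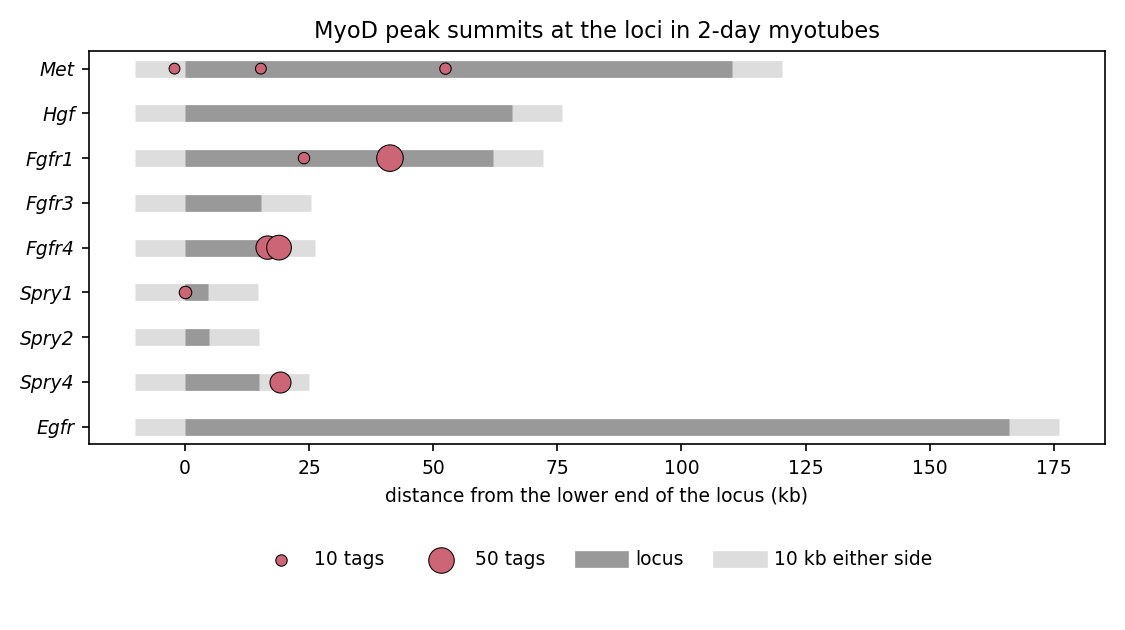
MyoD peak summits as circles, sized by tags, along each locus (dark) and 10 kb on either side (light), in kb from the lower end of the locus in mm9. Peaks of over 30 tags stand at Fgfr1, Fgfr4 and Spry4, peaks of about 10 tags at Met, Fgfr1 and Spry1, and none at Hgf, Fgfr3, Spry2 and Egfr, and Fgfr2 is left out because its locus is merged.

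The peaks with the most tags were at Fgfr1, Fgfr4 and Spry4. In Fgfr1 a summit at 26665410 on chromosome 8, inside the locus and 41285 bp from its lower end, had 54 tags and 22.07-fold enrichment (p score 187.87, false discovery rate 2.6%), more tags than 98.3% of all 10756 peaks. A second one at 26648089 had 10 tags. Fgfr4 had a pair of summits past the 3′ end of the locus, at 55270642 with 42 tags and 11.53-fold enrichment and at 55272940 with 47 tags and 10.66-fold enrichment, at 522 bp and 2820 bp beyond that end. Spry4 had 1 summit at 38764984 on chromosome 18, 4062 bp beyond the upper end of its locus, with 34 tags and 30.49-fold enrichment. Its p score of 228.24 was higher than that of 98.5% of peaks, and the summit also lies inside the locus of Arhgap26. None of those called lower or higher apart from Fgfr1 had a peak of more than 12 tags.

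Peaks with fewer tags stood at Met and Spry1. Spry1 had a single summit at 37538768 on chromosome 3, 100 bp below the lower end of the locus, the side of its start, with 12 tags, 14.64-fold enrichment, a p score of 51.35 and a false discovery rate of 23.4%. Its tags exceeded those of 39.0% of peaks, whose median was 14. The promoter printed above has its E-boxes on the same side of the start, but in another build, and the peak was not laid on that sequence. Met had summits at 17411683, which is 2116 bp below the lower end of the locus, and inside it at 17429080 and 17466260, with 9, 9 and 10 tags. Their false discovery rates ran from 10.62% to 23.84%. The p score of the summit at 17466260 was 74.61, above the median of 69.8 of all peaks, and those of the others were 52.49 and 53.69, below it. Of the 9 peaks outside the Fgfr2 locus, 3 had a false discovery rate of at most 5%, 1 each at Fgfr1, Fgfr4 and Spry4, against 19.4% of the 10756 peaks.

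Hgf, Fgfr3, Spry2 and Egfr had no summit within 100 kb. The nearest lay at 134830 bp from Hgf, 147709 bp from Fgfr3, 275994 bp from Spry2 and 192573 bp from Egfr. Of the 2 genes that rose, Spry1 had a peak at its start, while none was near Fgfr3, whose promoter holds CAGCTG. Of all tested genes called higher 58.6% had a peak, of those called lower 38.3% and of those not called 37.3%. The corresponding counts here were 1 of 2, 2 of 5 and 3 of 3. The last count includes Fgfr2, whose peaks cannot be assigned to it, and Spry4, whose summit also lies inside the locus of Arhgap26. Within 100 kb the number of summits was 7 at Spry4, 5 at Fgfr4, 3 at Met, 2 at Fgfr1 and 1 at Spry1.

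Genes with the most similar pair of levels were sought by Euclidean distance over the 2 values of log2(FPKM + 1), a measure that rests on 2 conditions and says little beyond level and change. For Met they were Cdc20 at 130 and 14.9 FPKM, Hmga2 at 111 and 14.3 FPKM and Pttg1 at 118 and 16.8 FPKM. For Fgfr1 they were Cap1, Cited2 and Timp1, and for Fgfr4 Aldh2, Aprt and Rcc2. Spry1 was nearest to Pik3cb at 3.66 and 14.8 FPKM, Tcp11l2 and Camk2b, and Spry2 to Mink1 at 50.7 and 16.1 FPKM, Syt12 and Fam73b. Fgfr3 lay nearest to Hist1h4j, Gm20428 and Apol6, Egfr to BC034090, Papd4 and Sox8, and Spry4 to Lin9, 9930021D14Rik and Dcbld1. The low pair Hgf and Fgfr2 lay nearest to Gm17390, Wasf3 and Gm15043, and to Rgag4 and Gm15777 among others.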

How the data were processed

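The members and all gene lists were chosen with earlier results of these data known. Of 7 samples, each the only one of its group, 3 were used, and ChIP of histones (4 samples) was not analysed here. Expression values are FPKM that the authors deposited as a Cuffdiff-style table. The submitters' processing notes list Cuffdiff, CASAVA 1.7.0, MACS 1.3.7 and mm9. The p-values and q-values are those the authors deposited. The sources used here name no aligner or annotation. Per the labels' protocols sequencing was in duplicates, and how the authors merged them is not stated, so standard errors are those of the authors' model and read depth is unknown. The antibodies listed in the labels' protocols do not include one against MyoD.

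Standard errors were obtained by dividing the log2 fold change that the authors deposited by its test statistic, and intervals are 95%. A centred alternative subtracted the median log2 fold change and adjusted p again over all genes by the Benjamini-Hochberg method. Log2 ratios used log2(FPKM + 1). Peaks carry tag counts, a p score of 10 times the negative log10 of p, a ratio of enrichment to background and a percent false discovery rate, per the file headers. These also give 8637045 treatment tags, 4049890 of them unique, and a p threshold of 1.00e-05. Summits were joined to loci of the table within 10 kb, checked on simulated data, with python 3.11.15, pandas 2.3.3 and scipy 1.17.1. Named genes were all 10 members, the neighbours and nearest patterns, and the 4 largest called changes of each list and direction at 1 FPKM or more, plus every tested ligand at that level. Others were named after their values were seen. Some genes that this rule names are not reported here. Promoters are from RefSeq.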

Additional observations from a re-analysis of the deposited data

How the results depend on the processing

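Read depth is unknown and each condition has 1 value, so no library could be left out, and no paired analysis was possible because no group has more than 1 sample. With the median shift of -0.41 removed, 2 of the 10 genes were called lower in place of 5. In the other lists the same setting gave 2 higher in place of 1 for the FGF receptor partners, 2 higher in place of 1 for the adaptors, 1 lower in place of 3 from Ras to ERK, 1 higher in place of 0 and 5 lower in place of 7 for ERK-induced genes, 2 lower in place of 3 for HGF activation (Plaur lost), 5 lower in place of 6 for the FGF receptor partners (Sdc4 lost), 6 lower in place of 9 for the feedback inhibitors and 7 lower in place of 11 for the other receptor tyrosine kinases. At q of at most 0.01, 1 gene was called higher and 2 lower. A pseudocount of 10 moved the median log2 ratio of the 10 genes from -1.27 to -0.52. Counting summits in the locus alone gave 3 genes with a MyoD peak, and so did keeping peaks nearer to the gene than to any other tested gene, both in place of 6. None of the alternatives turned a direction. The added alternatives, chosen after seeing the data, summed both Fgfr1 entries or left out Fgfr2.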

Other observations

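Other receptor tyrosine kinases of the same cells were described as a list of 49 genes, 21 of them tested. Of these 2 rose and 11 fell, against 6.52% and 17.3% of all tested genes, and the median log2 ratio of the 18 with a mean of at least 1 FPKM was -1.02. Insr, the insulin receptor, rose from 6.35 to 19.1 FPKM, and Ephb3, an ephrin receptor, rose from 5.35 to 20.5 FPKM. Their log2 fold changes in the authors' deposited table were 1.59 (SE 0.54, q = 0.0176) and 1.94 (SE 0.51, q = 0.00133). The falls that were largest in log2 fold change were those of Lmtk3 from 1.42 to 0.0430 FPKM, Styk1 from 2.19 to 0.147 FPKM, Mertk, a receptor of the TAM family, from 1.71 to 0.156 FPKM and Epha1, an ephrin receptor, from 17.6 to 2.17 FPKM. Axl, the most abundant of the list in growing myoblasts among those that fell, went from 455 to 96.6 FPKM with a log2 fold change of -2.24 in the authors' deposited table (SE 0.28, q = 3.19e-13), and it was named after its values were seen. Centring left 7 of the 11 falls, and Lmtk3, Ddr1, Ptk7 and Ephb2 did not pass. The log2 fold change of Lmtk3 in the authors' deposited table was -5.05 (SE 1.83, q = 0.0283), and its centred q was 0.0543. For Styk1 the log2 fold change was -3.90 (SE 1.34, q = 0.0192), with a centred q of 0.0467.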
